A study of Saccharomyces cerevisiae with 26 samples.

Results

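The 9 genes described here encode regulators of ribosome gene transcription in budding yeast. They were taken by name from the deposited RNA table, and all 9 (SFP1, IFH1, FHL1, RAP1, CRF1, STB3, DOT6, TOD6 and SCH9) were found among its 6008 genes. Yeast of the CEN.PK background was kept in continuous culture, where the cells cycle in step through a respiratory phase called OX (oxidative), a growth and division phase called RB (reductive building) and a resting phase called RC (reductive charging). Wild-type cells and cells with TAF14[W81A] were sampled for RNA-seq at 5 points of the cycle, with 2 libraries in each of the 10 groups. The points are named here early OX (time point 1), late OX (2), early RB (3), late RB (4) and RC (5). TAF14 is a subunit shared by several transcription and chromatin complexes, and its YEATS domain, where the W81A change lies, binds acylated histone lysines. Both genotypes share the CEN.PK background and the same culture regime. The labels do not say whether the 2 libraries of a group came from separate cultures, so the p-values rest only on the spread between these libraries, which may be technical. For each gene that spread was pooled over the 10 groups. The p-value of a comparison therefore does not measure the spread within its own groups. RNA came from whole cultures, in which fewer cells of a kind and less RNA per cell cannot be told apart. The genotypes were compared at equal time point numbers. Whether both were then at the same phase, and cycled as closely in step, was not tested.

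Ribosomal protein genes are switched on through RAP1, which opens their promoters, and FHL1, a forkhead protein that sits there and recruits the coactivator IFH1. CRF1, a relative of IFH1, is a corepressor that can take the place of IFH1 on FHL1, while SFP1 is a zinc-finger activator of both ribosomal protein and ribosome biogenesis genes. DOT6 and TOD6, a pair of related Myb-like proteins, and STB3 repress ribosome biogenesis genes by bringing in the histone deacetylase complex RPD3L, and the kinase SCH9, which acts under TORC1, holds these repressors in check.

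Levels are given below as log2 of the scaled reads of a library per base of gene length, on the authors' scaling, so that genes can be compared. Changes are limma estimates of log2(scaled reads + 1) with their SE, n = 2 libraries per group, and a gene was called at an adjusted p under 0.05 over the 5974 genes tested. Libraries held between 2020149 and 3745223 reads in the 5433 genes whose reads were recovered without ambiguity in every group. The 9 genes had 32 to 4040 reads in a library. Pearson r across genes between the paired libraries was 0.992 to 0.994 in 9 groups and 0.985 for wild type in early OX. The median SD between libraries was also highest there, at 0.126 (log2), against 0.0513 in the group with the lowest. TAF14 RNA was present in both genotypes, as a point mutation allows: its lowest library level was 7.76 in wild type and 8.03 in the mutant, so this level does not check the genotype labels. At time points 1 to 4 TAF14 was higher in the mutant, by 0.19, 0.38, 0.18 and 0.26 (limma adjusted p between 0.00014 and 0.025). In RC the difference of 0.01 was not called (adjusted p = 0.95). The calls in early OX and early RB were lost when some single libraries were left out. Leaving out a library leaves 1 in its group, so here and below a call can be lost with little change in the estimate.

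All 9 genes changed over the cycle in wild type and all 9 in the mutant. This is close to the whole transcriptome, where 93.7% of genes were called in wild type and 91.6% in the mutant, so it is not particular to these genes. They differed widely in size. In wild type, group means of TOD6 spanned 43.3-fold, those of CRF1 36.7-fold and those of IFH1 21.6-fold. DOT6 spanned 3.48-fold, STB3 2.72-fold, FHL1 2.37-fold, SFP1 2.21-fold, SCH9 1.97-fold and RAP1 1.53-fold. The order was alike at the top in the mutant, where TOD6 spanned 15.5-fold, CRF1 14.1-fold and IFH1 10.6-fold. Of the 9 genes, 5 had their highest wild-type mean in early OX (SFP1, IFH1, FHL1, TOD6 and SCH9), 3 in late RB (CRF1, STB3 and DOT6) and RAP1 in RC.

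**Figure D1:**
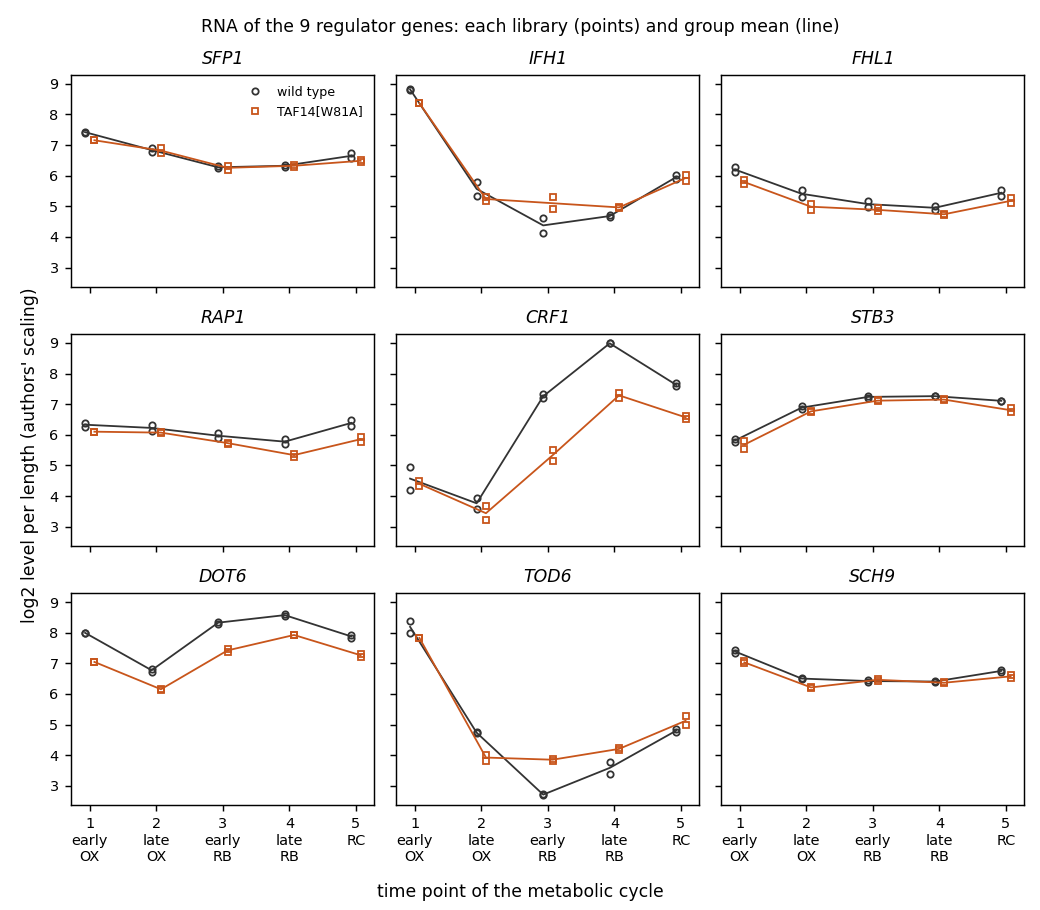
Log2 level per length (vertical axis, authors' scaling) of each regulator gene at the 5 time points (horizontal axis), with each library as a point and the group mean as a line, for wild type (circles) and TAF14[W81A] (squares). IFH1 and TOD6 are highest in early OX and CRF1 in late RB, where the wild-type libraries of CRF1 sit at 8.99 and the mutant libraries at 7.20 and 7.38.

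IFH1 (YLR223C, chromosome XII, 582233 to 585490) carried the widest swing among the activators. Its wild-type libraries had levels of 8.81 and 8.83 in early OX, 5.80 and 5.34 in late OX, 4.13 and 4.63 in early RB, 4.65 and 4.72 in late RB, and 6.03 and 5.88 in RC. Both early OX libraries lay far above all others, and the libraries of each neighbouring pair of time points did not overlap. From early to late OX IFH1 fell by 3.25 on the log2 scale (SE 0.16, limma adjusted p = 1.2e-11), 85th from the lowest of 5974 genes. It fell by a further 1.19 into early RB (SE 0.16, adjusted p = 4.4e-06). The change of 0.30 ± 0.16 from early to late RB was not called (adjusted p = 0.13), but became 0.55 with an adjusted p of 0.016 without library 2 of wild-type early RB and 0.055 (adjusted p = 0.82) without library 1. IFH1 then rose by 1.27 ± 0.16 into RC (adjusted p = 2.4e-06) and by 2.86 ± 0.16 from RC to early OX (adjusted p = 3.1e-11).

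The partners of IFH1 at ribosomal protein promoters moved far less. FHL1 (YPR104C, chromosome XVI, 733623 to 736433) ranged in wild type from 4.89 in a late RB library to 6.28 in an early OX library. It fell by 0.79 ± 0.11 from early to late OX (limma adjusted p = 6.3e-06), and rose by 0.49 ± 0.11 into RC (adjusted p = 0.0011) and by 0.75 ± 0.11 into early OX (adjusted p = 8.2e-06). Its fall of 0.34 ± 0.11 from late OX to early RB (adjusted p = 0.013) was not called without library 1 of late OX (-0.22, adjusted p = 0.16) or library 1 of early RB (-0.23, adjusted p = 0.14). RAP1 (YNL216W, chromosome XIV, 241689 to 244172) was the flattest of the 9, with wild-type libraries between 5.70 and 6.48. It fell by 0.25 ± 0.09 from late OX to early RB (limma adjusted p = 0.025), a call lost without library 2 of late OX (-0.14, adjusted p = 0.27) or library 2 of early RB (-0.18, adjusted p = 0.19). It rose by 0.61 ± 0.09 from late RB to RC (adjusted p = 2.9e-05). Its change of -0.11 ± 0.09 within OX was not called (adjusted p = 0.32) and turned to 0.21 (adjusted p = 0.048) under upper-quartile scaling, which moves the median of all genes in that comparison from -0.08 to 0.24.

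SFP1 (YLR403W, chromosome XII, 925568 to 927619) followed a shallow version of the same course. Its wild-type libraries had levels of 7.40 and 7.44 in early OX, 6.77 and 6.90 in late OX, 6.30 and 6.25 in early RB, 6.36 and 6.29 in late RB, and 6.73 and 6.57 in RC. The RB libraries were the lowest, and the libraries of early and late RB overlapped. SFP1 fell by 0.58 ± 0.08 within OX (limma adjusted p = 2.4e-06, and by 0.26 under upper-quartile scaling) and by 0.56 ± 0.08 into early RB (adjusted p = 5.4e-06). It rose by 0.32 ± 0.08 into RC (adjusted p = 0.0014) and by 0.77 ± 0.08 into early OX (adjusted p = 5.7e-08).

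CRF1 (YDR223W, chromosome IV, 912099 to 913502) was low in OX and high in RB and RC. Its wild-type libraries had levels of 4.20 and 4.94 in early OX, 3.95 and 3.58 in late OX, 7.32 and 7.20 in early RB, 8.99 and 8.99 in late RB, and 7.58 and 7.68 in RC. The 4 OX libraries were all lower than the 6 later ones, and the early OX pair was the most spread. CRF1 rose by 3.47 ± 0.19 from late OX to early RB (limma adjusted p = 1.4e-10), 51st from the highest of 5974 genes. It rose by another 1.73 ± 0.19 into late RB (adjusted p = 3.0e-06), fell by 1.36 into RC (SE 0.19, adjusted p = 1.4e-05) and fell by 3.05 from RC to early OX (SE 0.19, adjusted p = 2.3e-10). The fall of 0.80 ± 0.19 within OX (adjusted p = 0.0014) shrank to -0.43 (adjusted p = 0.032) without library 2 of early OX.

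The RNA balance of the coactivator and corepressor genes is given within each library as the ratio of their levels per length. Proteins were not measured, so their exchange on FHL1 was not observed. In wild type IFH1 exceeded CRF1 by 24.5-fold and 14.8-fold in the 2 early OX libraries and by 3.61-fold and 3.38-fold in late OX. CRF1 exceeded IFH1 by 9.15-fold and 5.93-fold in early RB, by 20.3-fold and 19.2-fold in late RB, and by 2.92-fold and 3.48-fold in RC. The ratio thus crossed 1 between late OX and early RB in wild type, and back between RC and early OX. In the mutant IFH1 exceeded CRF1 by 14.9-fold and 16.4-fold in early OX and by 4.25-fold and 2.85-fold in late OX, which overlap the wild-type values. In early RB CRF1 exceeded IFH1 by 1.19-fold and 1.152-fold in the mutant, in late RB by 5.26-fold and 4.77-fold, and in RC by 1.42-fold and 1.72-fold. At each of these 3 time points the mutant libraries did not overlap the wild-type libraries. No test was run on this ratio.

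**Figure D2:**
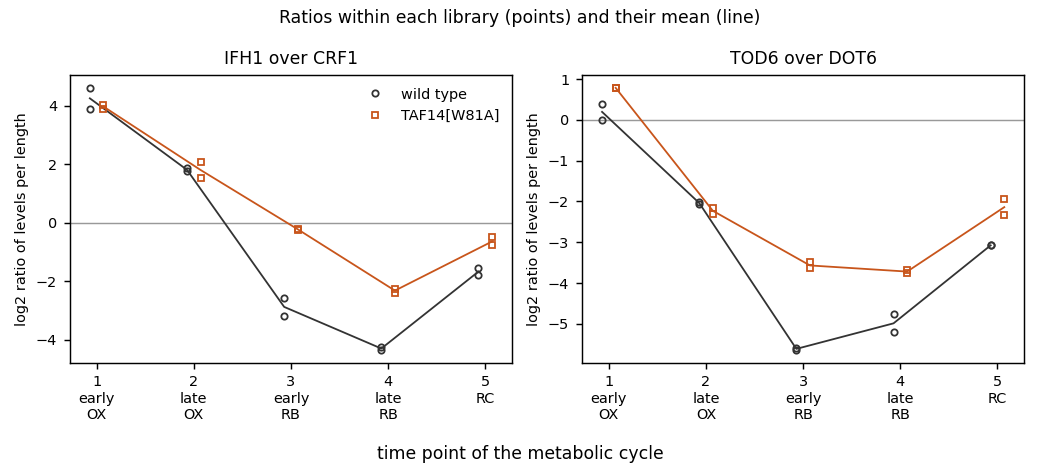
Log2 ratio of levels per length within each library (points) and its mean (lines) at the 5 time points, for IFH1 over CRF1 (left) and TOD6 over DOT6 (right), in wild type (circles) and TAF14[W81A] (squares). The IFH1 to CRF1 ratio falls to a mean of -4.30 in wild-type late RB and to -2.32 in the mutant.

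The repressor genes DOT6 and TOD6, related in sequence, peaked at different times. TOD6 (YBL054W, chromosome II, 117589 to 119166) had wild-type library levels of 8.38 and 8.005 in early OX, 4.76 and 4.71 in late OX, 2.73 and 2.70 in early RB, 3.39 and 3.78 in late RB, and 4.76 and 4.84 in RC. Early OX was the only time point with libraries above 5, and early RB rested on 32 and 35 reads. TOD6 fell by 3.45 within OX (SE 0.14, limma adjusted p = 2.4e-12), 64th from the lowest of 5974 genes, and fell by 1.99 into early RB (SE 0.14, adjusted p = 2.6e-09). It rose by 0.85 ± 0.14 into late RB (adjusted p = 0.00014), by 1.20 ± 0.14 into RC (adjusted p = 1.5e-06) and by 3.38 ± 0.14 from RC to early OX (adjusted p = 1.5e-12).

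DOT6 (YER088C, chromosome V, 333176 to 335188) had wild-type library levels of 7.994 and 7.997 in early OX, 6.82 and 6.72 in late OX, 8.36 and 8.29 in early RB, 8.60 and 8.55 in late RB, and 7.84 and 7.92 in RC. Late OX was its only trough, and the 2 late RB libraries were its highest. DOT6 fell by 1.22 within OX (SE 0.06, limma adjusted p = 1.5e-11), rose by 1.55 ± 0.06 into early RB (adjusted p = 3.8e-12) and by 0.25 ± 0.06 into late RB (adjusted p = 0.0031), and fell by 0.70 into RC (SE 0.06, adjusted p = 3.0e-08). Its change of 0.12 ± 0.06 from RC to early OX was not called (adjusted p = 0.081) and was -0.15 (adjusted p = 0.030) under upper-quartile scaling, where the median of all genes in that comparison moved from 0.04 to -0.23. In early OX the level of TOD6 was 1.305 and 1.005 times that of DOT6 in the 2 wild-type libraries. In early RB the level of DOT6 was 49.7 and 48.3 times that of TOD6.

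STB3 (YDR169C, chromosome IV, 792348 to 793889) was low only in early OX. Its wild-type libraries had levels of 5.77 and 5.86 there, 6.93 and 6.84 in late OX, 7.26 and 7.22 in early RB, 7.25 and 7.27 in late RB, and 7.12 and 7.10 in RC. It rose by 1.07 ± 0.08 within OX (limma adjusted p = 1.9e-09) and by 0.35 ± 0.08 into early RB (adjusted p = 0.00077), and fell by 1.29 from RC to early OX (SE 0.08, adjusted p = 1.0e-10). The other 2 steps of STB3, 0.02 ± 0.08 within RB and -0.15 ± 0.08 into RC, were not called (adjusted p = 0.82 and 0.10). The kinase gene SCH9 (YHR205W, chromosome VIII, 509363 to 511837) had wild-type libraries at 7.35 and 7.42 in early OX, at 6.39 to 6.52 in late OX and both RB time points, and at 6.79 and 6.72 in RC. It fell by 0.88 within OX (SE 0.06, limma adjusted p = 6.0e-10) and rose by 0.35 ± 0.06 into RC (adjusted p = 7.1e-05) and by 0.63 ± 0.06 into early OX (adjusted p = 2.7e-08). Its steps into early RB (-0.08 ± 0.06) and within RB (-0.02 ± 0.06) were not called, with adjusted p = 0.23 and 0.84. The first of these was called under upper-quartile scaling (-0.15, adjusted p = 0.034).

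Counted by step, 7 of the 9 genes fell and 1 rose within OX in wild type, against 40.7% and 34.3% of all genes. From late OX to early RB 5 fell and 3 rose (32.9% and 33.5% of all genes), and within RB none fell and 3 rose, these being CRF1, DOT6 and TOD6 (20.8% and 22.8%). From late RB to RC 6 rose and 2 fell (32.5% and 29.1%), and from RC to early OX 5 rose and 2 fell (41.2% and 38.6%). The median change of the 4 activator genes was -0.69 within OX and 0.76 from RC to early OX, beside -0.08 and 0.04 over all genes. Under upper-quartile scaling some called steps were smaller by over 1.5 times: within OX those of FHL1 (-0.47), CRF1 (-0.48) and SCH9 (-0.56), and from RC to early OX those of SFP1 (0.50), FHL1 (0.49) and SCH9 (0.37), all still called. The same scaling called falls of RAP1 within RB (-0.25, limma adjusted p = 0.039, from -0.19 not called) and from RC to early OX (-0.33, adjusted p = 0.0042, from -0.06 not called). The 4 corepressor and repressor genes had no common course: their median was -1.01 within OX, where STB3 rose and the other 3 fell.

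In the mutant, DOT6 was the only one of the 9 genes called against wild type at all 5 time points. Its mutant libraries had levels of 7.04 and 7.05 in early OX, 6.18 and 6.13 in late OX, 7.38 and 7.46 in early RB, 7.93 and 7.92 in late RB, and 7.22 and 7.31 in RC. At every time point both lay below both wild-type libraries, which was also so for FHL1 and RAP1. How many of all genes were separated in this way was not counted. The log2 changes at time points 1 to 5 were -0.95, -0.62, -0.91, -0.65 and -0.61, each with an SE of 0.06, and the limma adjusted p lay between 2.1e-08 and 3.3e-06. Averaged over the cycle the change was -0.75 ± 0.03 (adjusted p = 4.0e-12), 111th from the lowest of 5974 genes. The difference varied between time points (interaction adjusted p = 0.0042), yet the span of DOT6 over the cycle was 3.41-fold in the mutant and 3.48-fold in wild type.

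CRF1 was lower in the mutant from early RB to RC. Its mutant libraries had levels of 4.48 and 4.32 in early OX, 3.22 and 3.66 in late OX, 5.16 and 5.50 in early RB, 7.38 and 7.20 in late RB, and 6.52 and 6.62 in RC. The genotypes overlapped in both OX time points and were apart at the other 3. The change was -1.92 ± 0.19 in early RB (limma adjusted p = 1.0e-06), 16th from the lowest of 5974 genes, -1.70 ± 0.19 in late RB (adjusted p = 2.3e-06) and -1.06 ± 0.19 in RC (adjusted p = 0.00081). In OX it was -0.17 ± 0.19 and -0.32 ± 0.19, not called (adjusted p = 0.50 and 0.19), the first becoming -0.54 (adjusted p = 0.016) without library 1 of wild-type early OX and turning to 0.20 (adjusted p = 0.36) without library 2. The difference varied between time points (interaction adjusted p = 0.00014).

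TOD6 differed in both directions. Its mutant libraries had levels of 7.83 and 7.83 in early OX, 4.02 and 3.83 in late OX, 3.88 and 3.82 in early RB, 4.17 and 4.24 in late RB, and 5.26 and 4.98 in RC. They lay below wild type in OX and above it in RB and RC, with no overlap at any time point. TOD6 changed by -0.80 ± 0.14 in late OX (limma adjusted p = 0.00026), by 1.12 ± 0.14 in early RB (adjusted p = 1.0e-05) and by 0.61 ± 0.14 in late RB (adjusted p = 0.0021). The 0.32 ± 0.14 in RC was not called (adjusted p = 0.10). The change of -0.36 ± 0.14 in early OX (adjusted p = 0.045) was -0.17 without library 1 of wild type (adjusted p = 0.41), -0.36 without library 1 or library 2 of the mutant (adjusted p = 0.13 and 0.12), and -0.55 without library 2 of wild type (adjusted p = 0.010). It was also lost under upper-quartile scaling (-0.30, adjusted p = 0.088). The interaction adjusted p was 7.8e-06, the lowest of the 9 genes.

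**Figure D3:**
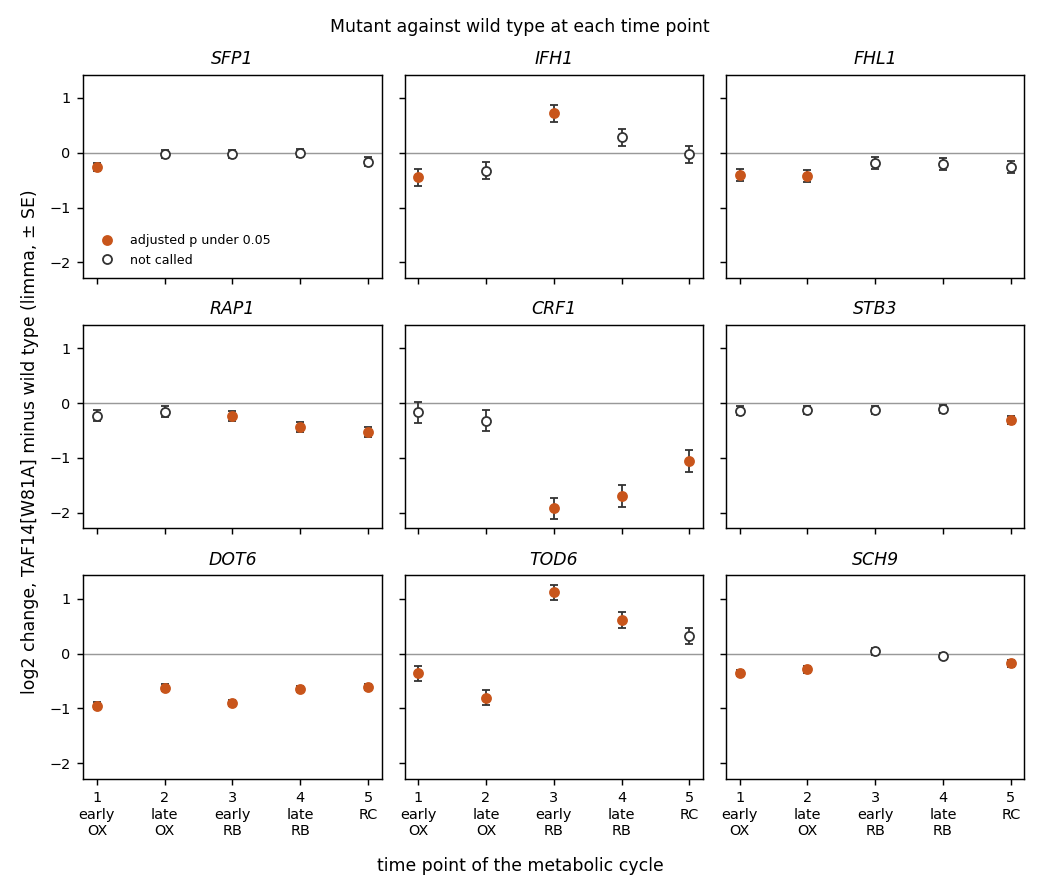
Log2 change of TAF14[W81A] against wild type (vertical axis, limma estimate with its SE) at the 5 time points, 1 panel for each regulator gene, with filled points where the adjusted p was under 0.05. DOT6 lies below 0 at all 5 time points, and TOD6 goes from -0.80 in late OX to 1.12 in early RB.

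Among the activators, IFH1 shared with TOD6 a change of sign. It was lower in the mutant in early OX (-0.45 ± 0.16, limma adjusted p = 0.025) and higher in early RB (0.72 ± 0.16, adjusted p = 0.0013), where the mutant libraries at 4.90 and 5.30 lay above the wild-type libraries at 4.13 and 4.63. The early OX call was lost without library 2 of wild type or either mutant library, although the value stayed between -0.46 and -0.44. The early RB value was 0.47 without library 1 of wild type. The other IFH1 differences, -0.33, 0.28 and -0.03 in late OX, late RB and RC, were not called (adjusted p = 0.094, 0.15 and 0.91). The late OX value became -0.56 (adjusted p = 0.019) without library 2 of wild type and -0.099 (adjusted p = 0.68) without library 1. IFH1 had an interaction adjusted p of 0.0020.

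RAP1 was lower in the mutant as a mean over the cycle (-0.32 ± 0.04, limma adjusted p = 4.6e-06). By time point RAP1 changed by -0.44 ± 0.09 in late RB (adjusted p = 0.0011) and by -0.53 ± 0.09 in RC (adjusted p = 0.00060). The -0.15 ± 0.09 of RAP1 in late OX was not called (adjusted p = 0.19). Its mutant libraries had levels of 5.39 and 5.29 in late RB and 5.77 and 5.94 in RC, each below both wild-type libraries. The -0.24 ± 0.09 in early RB (adjusted p = 0.049) was lost without library 1 of wild type (-0.16, adjusted p = 0.30) or either mutant library (adjusted p = 0.11 and 0.17). The -0.23 ± 0.09 in early OX was not called (adjusted p = 0.055), and was -0.30 (adjusted p = 0.032) without library 2 of wild type and -0.16 (adjusted p = 0.26) without library 1. The RAP1 interaction was not called (adjusted p = 0.10), but was called at 0.040 without time point 1 and at 0.048 without library 2 of wild-type late OX.

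FHL1 changed in the mutant by -0.41 ± 0.11 in early OX and -0.42 ± 0.11 in late OX (limma adjusted p = 0.0063 and 0.0053). The early OX call was lost without library 2 of the mutant (adjusted p = 0.051), and the late OX call without library 1 of wild type (-0.30, adjusted p = 0.080) or library 2 of the mutant (-0.32, adjusted p = 0.071). Its other 3 differences were between -0.26 and -0.19 and were not called, while the mean over the cycle was -0.30 ± 0.05 (adjusted p = 5.1e-05). SFP1 was called in early OX alone (-0.26 ± 0.08, limma adjusted p = 0.0086). Its estimates in late OX and RB were between -0.02 and 0.00, and its -0.16 ± 0.08 in RC was not called (adjusted p = 0.12). The SFP1 mean of -0.09 ± 0.03 (adjusted p = 0.022) was -0.05 without time point 1 (adjusted p = 0.24) and -0.06 under upper-quartile scaling (adjusted p = 0.16). It also missed the threshold without library 2 of wild-type late OX, library 1 of wild-type RC, library 1 of mutant late OX or library 2 of mutant early RB (adjusted p between 0.054 and 0.057).

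The STB3 differences at time points 1 to 4 were -0.14, -0.12, -0.12 and -0.11 (each SE 0.08), none of them called. Without library 2 of the mutant the early OX value was -0.27 (limma adjusted p = 0.012), and without library 1 it was -0.0075 (adjusted p = 0.95). In RC STB3 changed by -0.31 ± 0.08 (adjusted p = 0.0070), or -0.24 without library 1 of the mutant (adjusted p = 0.091). SCH9 changed by -0.36 ± 0.06 in early OX and -0.29 ± 0.06 in late OX (limma adjusted p = 0.00013 and 0.00074), and by 0.04 and -0.04 in RB, not called. Its -0.18 ± 0.06 in RC (adjusted p = 0.029) was lost without either wild-type library (adjusted p = 0.18 and 0.052) or library 2 of the mutant (adjusted p = 0.21), and under upper-quartile scaling (-0.12, adjusted p = 0.14). The interaction was called for SCH9 (adjusted p = 0.0034) and not for STB3, FHL1 or SFP1 (adjusted p = 0.45, 0.51 and 0.15).

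Counted together, 6 of the 9 genes were lower and none higher in the mutant in early OX, against 25.4% and 23.8% of all genes. In late OX 4 were lower and none higher (23.9% and 23.8%), and in early RB 3 were lower and 2 higher (18.0% and 25.8%). In late RB 3 were lower and 1 higher (21.7% and 25.9%), and in RC 5 were lower and none higher (15.2% and 15.1%). As a mean over the cycle 7 were lower and TOD6 was higher, against 31.9% and 38.0% of all genes, and IFH1 was not called (0.04 ± 0.07, limma adjusted p = 0.64) except without time point 1 (0.16, adjusted p = 0.047). The mean of TOD6, 0.18 ± 0.06 (adjusted p = 0.021), was 0.31 without time point 1. It missed the threshold without library 2 of wild-type early OX, library 1 of wild-type late RB or library 1 of mutant RC (adjusted p between 0.053 and 0.056). The interaction was called for 5 of the 9 genes and for 48.1% of all genes. In the authors' deposited table, of 45 gene and time point comparisons, 17 had an adjusted p under 0.05. All of them were among the 24 called here, and all 45 had the same direction. These counts compare the tests and are not a result about the 9 genes. Over all genes in early OX, the authors' adjusted p called 795, against 2940 here. The 7 called here alone were SFP1, FHL1, SCH9 and TOD6 in early OX, RAP1 in early RB, TOD6 in late RB and SCH9 in RC.

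The genes these regulators act on were followed beside them. In wild type the median of 130 ribosome biogenesis genes stood at 3.36 and 3.12 from each gene's wild-type mean (log2) in the 2 early OX libraries and at -1.97 and -1.86 in early RB. In the mutant it stood at -0.77 and -0.64 in early RB and at -0.76 and -0.57 in late RB, above the wild-type libraries at -1.98 and -1.88. For the 127 tested of 132 cytosolic ribosomal protein genes the early RB medians were -0.99 and -0.81 in wild type and 0.02 and 0.06 in the mutant. Their late OX medians were 1.03 and 1.00 in wild type and 1.32 and 1.25 in the mutant. The biogenesis medians in late OX went the other way, 0.47 and 0.38 in wild type and 0.22 and 0.25 in the mutant. In early RB 120 of 130 biogenesis genes and 124 of 127 ribosomal protein genes were called higher in the mutant, against 25.8% of all genes. Their median changes were 1.27 and 0.94, beside 0.02 over all genes. Among the ribosomal protein genes RPS29A (1.5 ± 0.13) and RPS10A (1.34 ± 0.09) had the highest called changes and RPL36B (-0.97 ± 0.37) and RPL4B (0.27 ± 0.08) the lowest. Among the biogenesis genes MRT4, an assembly factor (2.48 ± 0.10), and RPA49, an RNA polymerase I subunit (2.43 ± 0.16), stood highest and RIO1 (-0.51 ± 0.10) and ESF1 (-0.48 ± 0.07) lowest.

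**Figure D4:**
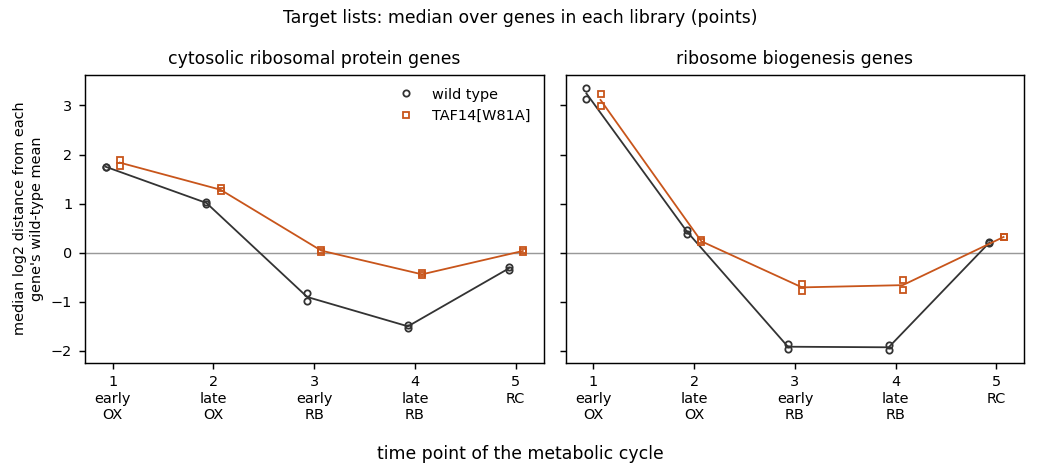
Median over genes of the log2 distance from each gene's wild-type mean (vertical axis) in each library (points) and group mean (lines), for cytosolic ribosomal protein genes (left, 127 genes) and ribosome biogenesis genes (right, 130 genes). In RB and RC the mutant libraries (squares) lie above the wild-type libraries (circles) in both lists. In OX they also lie above for ribosomal protein genes. For biogenesis genes they overlap wild type in early OX and lie below it in late OX.

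Over the 10 group means, Pearson r with the median of the biogenesis genes was 0.97 for IFH1 and 0.97 for TOD6, although TOD6 is known as a repressor of these genes. The same r was 0.93 for SFP1, 0.86 for FHL1, 0.83 for SCH9 and 0.52 for RAP1, and negative for STB3 (-0.95), CRF1 (-0.63) and DOT6 (-0.37). With the ribosomal protein genes r was -0.91 for CRF1 and 0.88 for SFP1. The points of these correlations share libraries and cycle phases, and they are descriptions of 10 means. Of 2691 named genes at or above the median level, IFH1 was most like TRM112 (r = 0.997), BUD20 (0.996) and MPP10 (0.995), and TOD6 most like UTP7 (0.994), DBP10 (0.992) and IFH1 (0.991). CRF1 was most like YPR1 (0.985), PRC1 (0.976) and GLO4 (0.973). DOT6 was most like NST1 (0.965), DIC1 (0.927) and PEX2 (0.908), and STB3 most like YSC84 (0.992), COX20 (0.992) and SIP2 (0.985). SFP1 was most like RVB2 (0.990), CCT3 (0.983) and SSH1 (0.981), and FHL1 most like ENT5 (0.992), ERG7 (0.989) and RSC8 (0.978). SCH9 was most like LSO2 (0.982), TRP5 (0.978) and PUF4 (0.959). RAP1 had the weakest likeness, to RTN1 (0.893), NBP35 (0.886) and ARG7 (0.884).

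Other genes of the same pathway were read in early RB, where the differences of TOD6, CRF1 and IFH1 were at their largest. Of 12 RPD3L genes, whose complex the repressors recruit, 1 was higher and 4 were lower in the mutant (median -0.18), with ASH1 highest (0.78 ± 0.09) and CTI6 (-0.73 ± 0.08) and RXT2 (-0.34 ± 0.09) lowest. Of 15 Ras and PKA genes 3 were higher and 7 lower (median -0.24), with RAS1 (1.22 ± 0.12) and TPK3 (0.79 ± 0.11) highest and GPA2 (-1.08 ± 0.09) and CYR1 (-0.40 ± 0.11) lowest. RAS1 encodes a Ras GTPase, TPK3 a catalytic subunit of PKA, GPA2 a G protein and CYR1 adenylate cyclase. Of 19 TORC1 genes 3 were higher and 4 lower (median -0.08), with GTR1 (0.31 ± 0.08) and SEH1 (0.19 ± 0.06) highest and TCO89 (-0.41 ± 0.09) and IML1 (-0.36 ± 0.07) lowest. Of 8 kinases that act on the repressors or opposite to SCH9, 1 was higher (MCK1, 0.28 ± 0.07) and 4 were lower (median -0.29), led by YAK1 (-0.72 ± 0.16) and SNF1 (-0.58 ± 0.08).

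Of 6 genes of casein kinase 2 and the CURI complex, which holds IFH1, 3 were higher and none lower in the mutant in early RB (median 0.28): UTP22 (0.63 ± 0.07), CKA2 (0.45 ± 0.07) and CKB2 (0.36 ± 0.06). Of 11 other genes listed beside these regulators 1 was higher (TYE7, 0.30 ± 0.12) and 5 were lower (median -0.19), TBF1 (-0.34 ± 0.11) and GCR1 (-0.26 ± 0.08) the most. Of 12 NuA4 acetyltransferase genes 2 were higher and 2 lower (median 0.06), with EAF6 (0.53 ± 0.11) and TRA1 (0.25 ± 0.07) above and EAF3 (-0.47 ± 0.08) and EPL1 (-0.40 ± 0.06) below. Over all genes 25.8% were higher and 18.0% lower in that comparison, and no test was run on these lists.

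H3K9ac, the acetylated form of lysine 9 on histone H3 that marks active gene starts, was read around the start of each gene at early and late RB in wild type. There was 1 library per time point, so no test was possible. DOT6 carried the strongest signal of the 9 genes, 1.75 in early RB and 1.61 in late RB, above 95.4% and 93.0% of the 6006 genes. CRF1 followed with 1.09 and 0.980, above 67.2% and 66.3% of genes, and RAP1 had 0.957 and 0.708. STB3 had 0.796 and 0.727. The 5 genes with their highest RNA mean in early OX, namely IFH1, TOD6, SCH9, FHL1 and SFP1, lay between 0.449 and 0.587 in early RB. These values were above 5.14% to 15.1% of genes and below the median of all genes at 0.912. STB3 also lay below the median in early RB and in late RB (median 0.831), and RAP1 did so in late RB. TOD6 had the largest ratio of late to early RB among the 9 genes, 1.25, above 96.0% of genes, and RAP1 the smallest, 0.739, above 8.80%. The signal was higher in late RB at 4 of the 9 genes (SFP1, IFH1, FHL1 and TOD6), against 33.8% of all genes, and at 7, against 55.0% of all genes, when each time point was divided by its median over genes. The deposited scale is not stated, and the position of the bins was read from the signal of neighbouring genes.

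**Figure D5:**
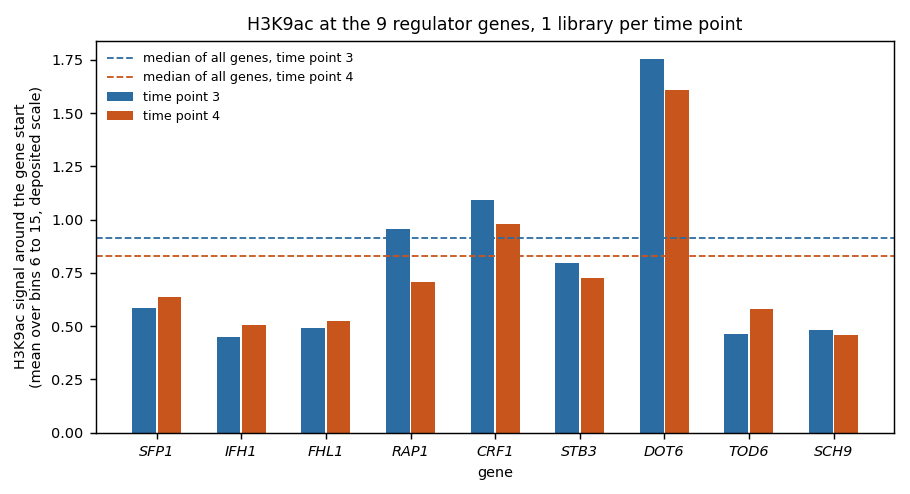
H3K9ac signal around the gene start (vertical axis, mean over bins 6 to 15 on the deposited scale) for the 9 regulator genes in early RB (time point 3) and late RB (time point 4), as bars from 0 with 1 library each, and the median of all genes as dashed lines. DOT6 stands at 1.75 and 1.61, and RAP1 falls from 0.957 to 0.708.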

How the data were processed

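The deposited RNA table gives, per the file headers, 1 log2 level per gene, genotype and time point, with the authors' log2 fold change and adjusted p-value of mutant against wild type. Tools listed in the submitters' processing notes are BWA, deepTools, MACS2 and DESeq2, with the build sacCer3 and neither roles nor versions. The H3K9ac table, deposited by the authors, holds a signal per gene and bin on a scale that is not stated. Of the 26 samples, 20 are RNA libraries and 6 ChIP samples.

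Multiplied by gene length, a linear deposited level equals the whole reads of both libraries of the group, weighted by a constant that is specific to the library. At RefSeq lengths (assembly R64, which also gave the positions) 5438 genes were whole in all 10 groups, and 552 at a searched length, while with shuffled lengths 0.958% were. For 5974 genes reads had a single solution in at least 1 group, and the other groups entered as means. The recovery carries no letter, so libraries are called 1 and 2, with no tie between groups. All 9 genes had single solutions in every group. Whether the authors' counting used strand, or how it treated reads shared by the related pairs IFH1 and CRF1 or DOT6 and TOD6, is not given in the sources used here. No other annotated gene overlaps any of the 9.

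The pseudocount was 1, with no filter on low values. limma 3.58.1 (trend, R 4.3.3) fitted 10 group means with 10 residual degrees of freedom, and p-values were two-sided and adjusted by Benjamini-Hochberg within each comparison at 0.05. The fit and the recovery were tested on simulated data. Python 3.11.15, numpy 2.4.6, pandas 2.3.3 and numba 0.67.0 were used for the recovery.

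From the H3K9ac file 281351 repeated and 344 broken rows were left out, and bins 6 to 15 were averaged, bins up to 57 being complete at both time points. Bin 5 correlated at r = 0.956 between divergent neighbours and 0.0526 between convergent ones, which places the low bins upstream.

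The members, gene lists, named genes and comparisons were chosen with earlier results of these data known. Named genes were the 9 members, the 3 genes most like each, the 2 highest and 2 lowest called genes of each list in a described comparison, and TAF14. Protein and promoter sequences were not used here.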

Additional observations from a re-analysis of the deposited data

Results flagged for a closer look

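The difference between mutant and wild type varied between time points for 5 of the 9 genes by limma's interaction test over the 5 time points. The adjusted p was 0.0020 for IFH1, 0.00014 for CRF1, 0.0042 for DOT6, 7.8e-06 for TOD6 and 0.0034 for SCH9, beside 48.1% of all genes called. CRF1 went from -0.17 in early OX to -1.92 in early RB, TOD6 from -0.80 in late OX to 1.12 in early RB, and IFH1 from -0.45 in early OX to 0.72 in early RB. DOT6 was lower at every time point, from -0.61 in RC to -0.95 in early OX. SCH9 went from -0.36 in early OX to 0.04 in early RB.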

How the results depend on the processing

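Of 846 differences of the 9 genes under other settings, 783 kept their direction and their side of the threshold, 31 lost a call, 9 gained one and 23 turned, 21 of these called neither way. Of 468 p-values with no direction (interaction and change over the cycle), 466 kept their side and 2 gained a call. A pseudocount of 10 and a minimum mean of 50 scaled reads changed no call of the 9 genes. Upper-quartile scaling turned the change of RAP1 within OX to 0.21, that of TAF14 to 0.19, and that of DOT6 from RC to early OX to -0.15. It also turned, with no call, SFP1 and STB3 within RB (-0.0063 and -0.032) and the mutant differences of SFP1 in late OX and late RB (0.0065 and 0.038) and IFH1 in RC (0.029). Leaving out 1 library, which leaves 1 in its group, took 10 uncalled values through 0. In wild type RAP1 ranged from -0.22 to 0.0058 within OX and from -0.15 to 0.030 from RC to early OX, and SCH9 from -0.039 to 0.0063 within RB. For the mutant CRF1 ranged from -0.54 to 0.20 in early OX, SFP1 from -0.089 to 0.054, -0.088 to 0.052 and -0.039 to 0.038 at time points 2 to 4, IFH1 from -0.12 to 0.058 in RC and -0.011 to 0.089 over the cycle, and TAF14 from -0.047 to 0.062 in RC. Under that scaling the share of called genes that were higher moved from 45.7% to 63.4% within OX, from 51.7% to 40.5% from RC to early OX, and from 49.9% to 64.5% for the mutant in RC. It moved the median of all genes from -0.08 to 0.24 within OX and from 0.04 to -0.23 from RC to early OX. For the mutant in early OX 2940 genes were called, against 795 by the authors' deposited adjusted p. Leaving out 1 library changed the 1808 genes called for the mutant in RC to between 1077 and 1228. The count of genes with higher H3K9ac in late RB was 4 of 9 (33.8% of all genes), and 7 with each time point divided by its median (55.0% of all genes). The causes of these shifts were not tested. TMM scaling and the edgeR and DESeq2 tests were not run on the recovered reads. No paired analysis was possible because the recovered libraries carry no replicate letter. Low read numbers limit TOD6 in early RB and CRF1 in OX, and with 1 ChIP library per time point no error can be given.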
